A study of Homo sapiens with 2 samples.

Results

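The genes described here drive the passage from G1 into S phase: the D-type cyclins CCND1, CCND2 and CCND3, their kinases CDK4 and CDK6, the cyclin CCNE1 with its kinase CDK2, the phosphatase CDC25A, and the transcription factors E2F1 and E2F3. MYC binding was read from a ChIP-seq peak list, and a peak was assigned to a gene when its summit, the base of greatest enrichment, lay within 5 kb of the gene's start site on GRCh37. The 10 genes were chosen by name, and those without a peak stayed in the count. Of the 17659 peaks in the list, 19 fell within these windows, and they were shared among 7 of the 10 genes.

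The cells were TET21, derived as a single clone from SH-EP, a human neuroblastoma line, and they carry a MYCN transgene which doxycycline represses. They expressed full-length MYC ectopically and were kept in doxycycline at 1 µg/mL for 7 days, then fixed in 1% formaldehyde for 10 min. MYC was precipitated with 2 µg of a rabbit polyclonal antibody made by the submitters, and the labels do not say whether it tells ectopic from endogenous MYC. There was 1 ChIP library and 1 input library from the same kind of cells, so no value has a replicate error and no group comparison or test was possible. Transcriptomes of MYC deletion mutants, which the design text names, were not analysed here.

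As background, D-type cyclins bind CDK4 and CDK6, and the active kinases phosphorylate the retinoblastoma protein, which releases E2F transcription factors. E2F factors then raise transcription of CCNE1, CDC25A and of E2F genes themselves, CCNE1 activates CDK2, and CDC25A removes inhibitory phosphates from CDK2. MYC binds DNA with its partner MAX, preferentially at the E-box CACGTG, and CDK4, CCND2, CDC25A and E2F genes have been described as MYC targets in other cells.

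The promoter sequences on which the later comparison rests are shown first. RefSeq promoter windows (GRCh38.p14, 250 bases before to 50 bases after a start site) were found for 7 of the 10 genes, with 11 start sites among them. CCND1, CCND2 and CDK2 were not matched. The first set shows every CACGTG found in these windows, in capitals on an otherwise lower-case strand, written 5′ to 3′ along the gene. The CDK4 stretch is the 250 bases before the start (chr12:57752311-57752560, minus strand). The E2F3 stretch is the 250 bases before the downstream of its listed start sites (chr6:20403364-20403613, plus strand). The CDK6 stretch is 26 bases around a CACGTG that follows the upstream of its listed start sites (chr7:92836528-92836553, minus strand).
CDK4: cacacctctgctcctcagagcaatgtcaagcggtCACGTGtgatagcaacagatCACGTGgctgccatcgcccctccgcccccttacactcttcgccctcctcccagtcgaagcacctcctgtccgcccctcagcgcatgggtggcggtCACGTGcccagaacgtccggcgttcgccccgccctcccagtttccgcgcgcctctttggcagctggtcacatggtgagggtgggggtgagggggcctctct
E2F3 downstream start: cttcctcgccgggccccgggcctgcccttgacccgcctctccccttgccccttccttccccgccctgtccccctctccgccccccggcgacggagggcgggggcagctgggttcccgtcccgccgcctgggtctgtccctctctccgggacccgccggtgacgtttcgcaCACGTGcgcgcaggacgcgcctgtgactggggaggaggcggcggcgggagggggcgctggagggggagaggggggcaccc
CDK6 upstream start: aggccgcggaCACGTGcggagagccg

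CDK4 held 3 copies of CACGTG, whose first bases lay 216, 196 and 101 bases before the start. E2F3 held 1 copy, 80 bases before its downstream start, and CDK6 held 1 copy, which began at base 31 of the transcript from its upstream start. Windows with 3 or more copies numbered 33 of all 35116 in the table (0.094%), and windows with any copy made up 7.26%. Counted by gene, 3 of the 7 matched genes held a CACGTG, against 8.77% of the 27305 genes with a RefSeq window. A gene with several windows has more places for a match. Counted by window it was 3 of 11, against 7.26%. A match is a run of letters and not a measured binding site.

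The second set shows the core TTGGCGC of the E2F binding motif in the last 70 bases before the start, a motif chosen after the sequences were seen. It is given because E2F1, E2F3 and CDC25A all carry it close to a start. The stretches are chr20:33686386-33686455 (minus strand), chr6:20401809-20401878 (plus strand, the upstream E2F3 start) and chr3:48188418-48188487 (minus strand).
E2F1: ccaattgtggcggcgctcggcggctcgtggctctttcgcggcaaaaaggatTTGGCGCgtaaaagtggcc
E2F3 upstream start: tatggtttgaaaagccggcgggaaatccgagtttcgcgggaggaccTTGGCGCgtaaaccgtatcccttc
CDC25A: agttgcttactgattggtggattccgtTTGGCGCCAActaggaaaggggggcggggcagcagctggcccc

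The first base of the core lay 19 bases before the start in E2F1 and 24 in E2F3. In CDC25A it was found on both strands, with overlapping matches that begin 43 and 40 bases before the start. Of all genes with a RefSeq window, 3.66% held TTGGCGC at least once. Of these promoters, E2F1 and E2F3 had a MYC peak near the start and CDC25A had none.

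MYC peaks were thus listed near 2 of 3 D-type cyclin genes, near both CDK4 and CDK6, near CCNE1 but not CDK2, near both E2F genes and not near CDC25A. As a yardstick, the chromosomes were cut into 293245 consecutive windows of 10 kb, of which 13588 (4.63%) held a summit. These windows are mostly not at genes, whereas MYC peaks are known to gather at gene starts, so the share does not stand for an ordinary promoter. The share of all gene starts with a peak was not computed, since no GRCh37 annotation was used here. In the 7 genes with a peak, the summit nearest to the start lay between 13 bp (CCND1) and 340 bp (CCND3) from it, and in 5 of them (CCND1, CDK4, CDK6, E2F1 and E2F3) a peak covered the start itself. Of the 19 summits, 11 lay within 1 kb of a start, 8 were upstream and 11 downstream.

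**Figure D1:**
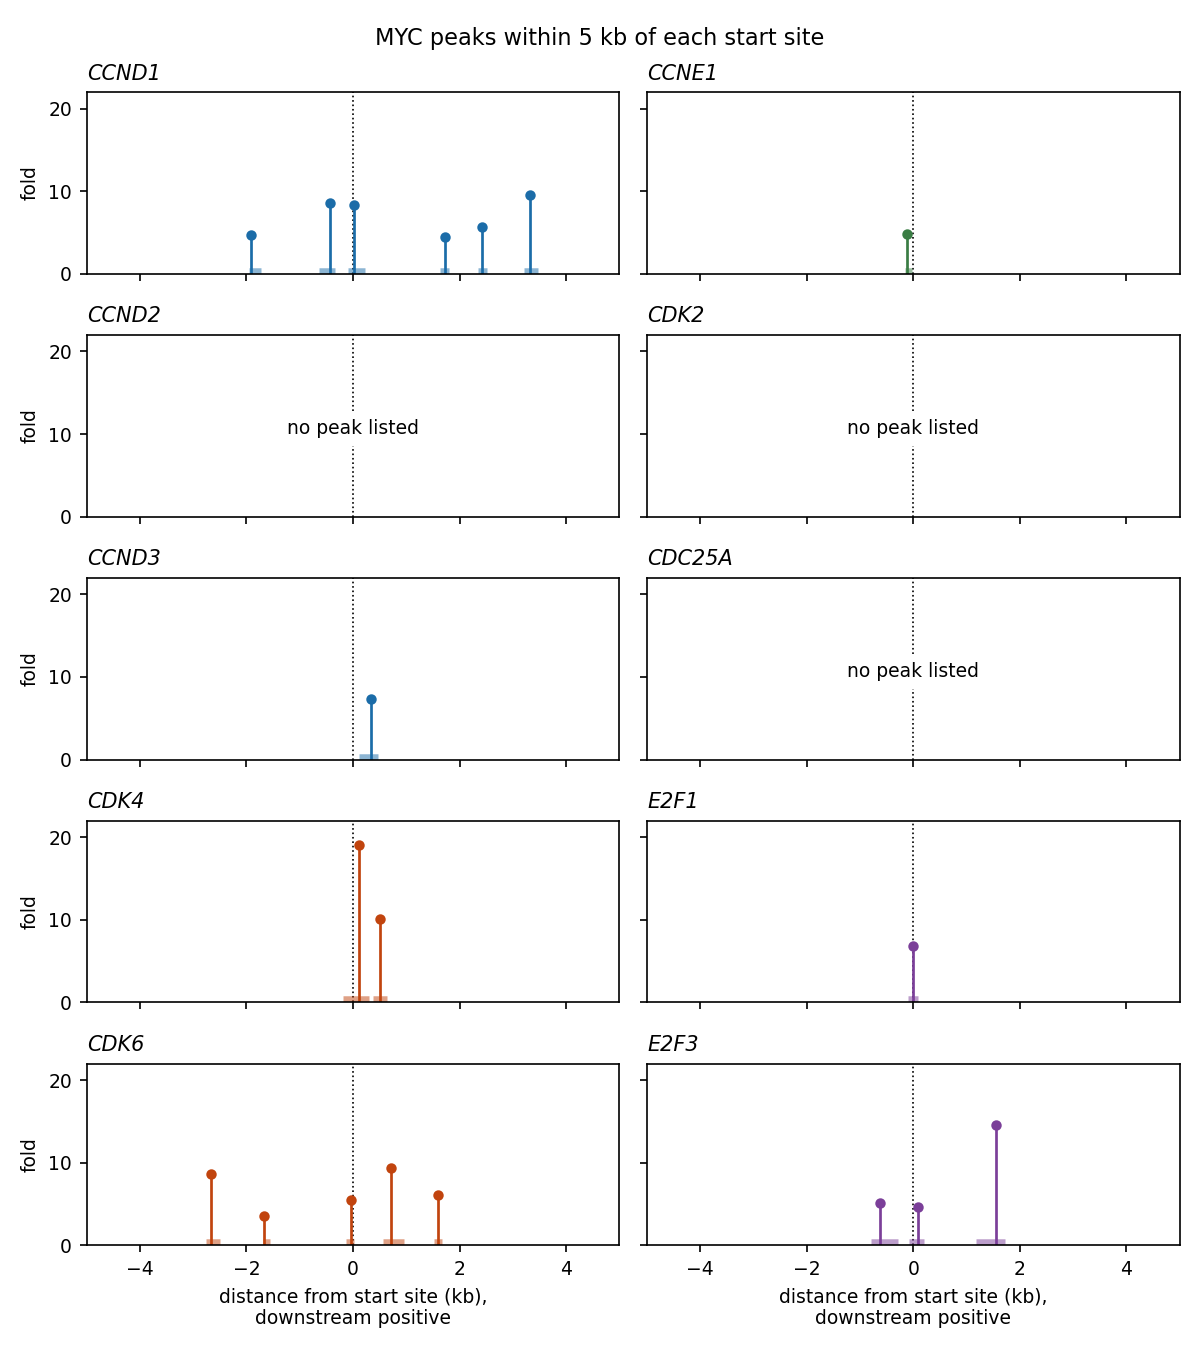
MYC peaks within 5 kb of the 10 start sites. The horizontal axis is the distance from the start in kb with downstream positive, the vertical axis is the deposited fold over local background, stems mark summits and pale bars at the base mark the extent of each peak; CCND1 and CDK6 have peaks spread over several kb, CDK4 reaches the highest fold at 19.0, and CCND2, CDK2 and CDC25A have no peak.

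CCND1 encodes cyclin D1 and had the most peaks, 6, spread from 1917 bp upstream to 3327 bp downstream of its start on chromosome 11 (69455873). The peak over the start (69455774 to 69456105) had a fold of 8.37, the deposited ratio of ChIP signal to the local background. It rested on 16 ChIP fragments piled up at the summit (95% Poisson interval 9.15 to 26.0) against 1.03 expected, with a −log10 p of 14.7. A neighbouring peak 430 bp upstream had a similar fold, 8.55 with 15 fragments (8.40 to 24.7). The highest fold at CCND1 was not at the start but 3327 bp downstream (69459085 to 69459337), where 21 fragments (13.0 to 32.1) gave 9.48. The intervals of these 3 pileups overlap, so their order is not settled by the counts. The other CCND1 peaks, at 1917 bp upstream and at 1723 and 2429 bp downstream, had folds of 4.71, 4.43 and 5.60 on 9, 8 and 12 fragments. CCND1 thus had 3 peaks with folds of 8.37 to 9.48 and 3 with folds of 4.43 to 5.60, and none reached 10.

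CCND3, which encodes cyclin D3, had 1 peak (chromosome 6, 41909109 to 41909467) with its summit 340 bp downstream of the start. Its fold was 7.35, from 12 fragments (6.20 to 21.0) over a background of 0.768. RefSeq lists 3 start sites for CCND3, the outermost 109483 bp apart on GRCh38, and only the start given for this gene on GRCh37 (41909586) was examined. None of its 3 promoter windows held CACGTG. The related CACGCG was in 1 of them, that of the most upstream start, 106880 bp from the next on GRCh38. Which of these starts is the one examined was not matched.

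CCND2, which encodes cyclin D2, had no peak. The nearest summit to its start (chromosome 12, 4382902) lay 47.5 kb downstream and was weak, with a fold of 3.69 on 10 fragments over a background of 1.98. TIGAR is the next gene on that side in the RefSeq gene order, and the antisense gene CCND2-AS1 overlaps CCND2.

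CDK4 had the strongest binding of the 10 genes by fold, by −log10 p and by pileup. Its main peak (chromosome 12, 58145926 to 58146425) covered 195 bp upstream to 304 bp downstream of the start, with the summit 110 bp downstream. There 33 fragments (22.7 to 46.3) stood over a background of 0.787. The fold was 19.0, with 42.3 for −log10 p. This peak ranked 302 of 17659 by fold, above 98.3% of the list. A second peak, with its summit 515 bp downstream (58145595 to 58145855), had 17 fragments (9.90 to 27.2) and a fold of 10.1. CDK4 overlaps TSPAN31 and has MARCHF9 as its next gene in RefSeq, and a peak near more than 1 gene cannot be ascribed to any of them from position alone.

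CDK6 had 5 peaks, spread from 2663 bp upstream to 1600 bp downstream of its start on chromosome 7 (92463231). The peak at the start (92463211 to 92463364) was among the weaker of them, with a fold of 5.48 on 11 fragments (5.49 to 19.7). The highest fold, 9.33, was 707 bp downstream (92462272 to 92462661), with 19 fragments (11.4 to 29.7). The most fragments, 23 (14.6 to 34.5), were 2663 bp upstream (92465727 to 92466000), where a background of 1.78 brought the fold to 8.63. The strongest CDK6 site therefore depends on whether fold or pileup is used to rank them.

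The other CDK6 peaks were 1675 bp upstream, with a fold of 3.57 on 12 fragments, and 1600 bp downstream, with 6.04 on 17. The first had the lowest fold of all 19 peaks, with its 12 fragments over a background of 2.64 expected fragments, which was among the highest. The E2F3 peak over the start had the same background, and 16 fragments there gave a fold of 4.67. RefSeq lists a second CDK6 start 2614 bp upstream of the downstream one on GRCh38, the one followed by the CACGTG shown above, and the antisense gene CDK6-AS1 overlaps CDK6. The GRCh38 starts were not matched to positions in the peak list, so whether the peak 2663 bp upstream sits on that start was not tested. The local background was higher at CDK6 (median 1.78, range 1.14 to 2.64) than at the peaks of the other genes (median 0.830). It was also higher over the list on chromosome 7, with a median of 1.32 against 1.03 on the other chromosomes, and its part in the CDK6 folds was not tested.

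CCNE1, which encodes cyclin E1, had a single weak peak on chromosome 19 (30302735 to 30302882), 124 bp upstream of the start. It rested on 7 fragments (2.81 to 14.4), the fewest of the 19, over a background of 0.684. The fold was 4.75, with 6.19 for −log10 p. Only 16.2% of the list had a lower fold. Its partner kinase gene CDK2 had no peak, and the nearest summit to the CDK2 start (chromosome 12, 56360556) was 40.7 kb downstream, with a fold of 5.35 on 8 fragments. PMEL and RAB5B flank CDK2 in the RefSeq gene order.

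CDC25A, the phosphatase that activates CDK2, had no peak within 5 kb of its start on chromosome 3 (48229801), nor within 50 kb. The nearest summit was 52.9 kb upstream, with a fold of 6.90 on 15 fragments. Over the span of the chromosomes 70.7% of positions lay more than 50 kb from any summit, and 74.7% more than 40 kb. For CCND2, CDK2 and CDC25A the absence of a peak means only that none is in the deposited list, a filtered list whose filter no label describes. At the lowest background in the list, 0.6832 fragments, the weakest listed peaks rested on 5 fragments, with a fold of 3.56. At that background no site with fewer fragments is in the list, while lower folds were listed at higher backgrounds, down to 1.59. Whether the caller's threshold or the later filter set these limits was not tested.

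E2F1 had 1 peak centred on its start (chromosome 20, 32274129 to 32274304), with the summit 16 bp upstream. Its fold of 6.79 on 11 fragments (5.49 to 19.7) was close to the middle of the list, above 56.7% of all peaks. E2F3 had 3 peaks, and the strongest was not at the start examined (chromosome 6, 20402137). It lay 1551 bp downstream (20403319 to 20403862), where 24 fragments (15.4 to 35.7) over a background of 0.722 gave a fold of 14.5, with 29.0 for −log10 p. It ranked 863 by fold, above 95.1% of the list, and was the widest of the 19 peaks at 544 bp.

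The peak over the E2F3 start (20402049 to 20402342) had 16 fragments (9.15 to 26.0), as many as the peak over the CCND1 start. Its fold was 4.67 against 8.37 at CCND1, since the local background was 2.64 expected fragments against 1.03. The third E2F3 peak, 623 bp upstream, had a fold of 5.14 on 8 fragments. E2F3 is known to give a longer and a shorter protein from separate promoters, and RefSeq lists its start sites 1735 bp apart on GRCh38. The strong peak covered 1182 to 1725 bp downstream of the start examined on GRCh37. The builds were not matched to each other, so whether this peak covers the downstream promoter, whose CACGTG is shown above, was not tested.

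**Figure D2:**
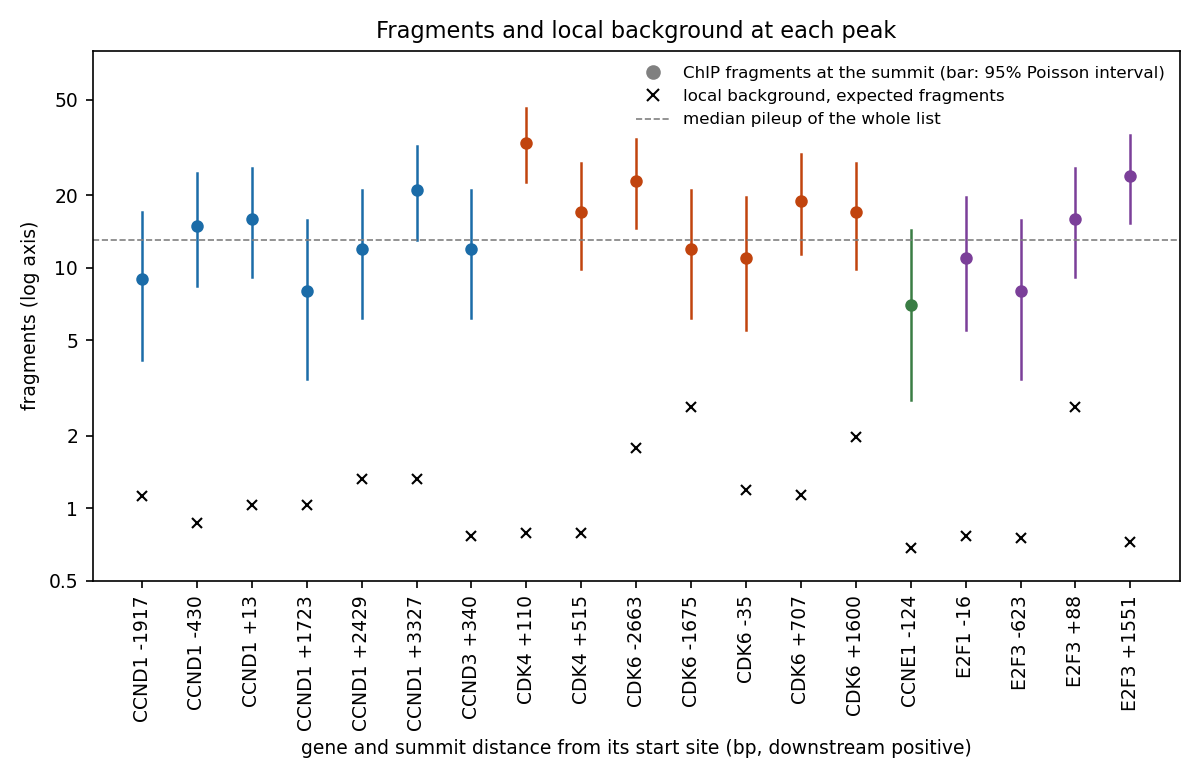
ChIP fragments at each of the 19 summits with 95% Poisson intervals (points and bars) and the local background (crosses), on a log axis in fragments, by gene and summit distance from the start in bp. CDK4 at 110 bp downstream has the highest pileup, 33, CCNE1 the lowest, 7, and the highest backgrounds, 2.64, are at CDK6 and E2F3; the dashed line is the list's median pileup of 13.

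The 19 peaks as a set had folds much like the list they came from. Their median fold was 6.79 against 6.40 over all peaks, their median pileup 15 against 13 fragments, and their median width 261 bp against 226 bp. Folds of at least 10 were seen in 3 of the 19, or 15.8% (Wilson 95% interval 5.52 to 37.6), against 15.4% of the whole list. These 3 were both CDK4 peaks and the downstream E2F3 peak. The Wilson interval takes the 19 peaks as independent, although 14 of them lay near 3 genes. It therefore does not measure the spread over genes. At the other end, 6 of the 19 fell below the list's lower quartile of 5.17, while 7 lay above its upper quartile of 8.38. The share of strong peaks was thus near that of the list, and the genes differed among themselves. Best folds ran from 4.75 at CCNE1, through 6.79 at E2F1, 7.35 at CCND3, 9.33 at CDK6, 9.48 at CCND1 and 14.5 at E2F3, to 19.0 at CDK4.

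The number of peaks and counting error limit how far that order can be read. Each best fold is the highest of 1 to 6 peaks, and the 3 lowest belong to the genes with 1 peak. The intervals below do not allow for that choice. Converted to folds at a fixed background, the Poisson intervals of the best peaks were 13.3 to 26.5 at CDK4 and 9.51 to 21.3 at E2F3, which overlap. Those of CCND1 (6.03 to 14.3) and CDK6 (5.80 to 14.3) overlapped both. The intervals of CCND3 (4.07 to 12.4), E2F1 (3.67 to 11.7) and CCNE1 (2.26 to 9.16) lay below that of CDK4 without overlap, and neighbours in the order were not separated.

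**Figure D3:**
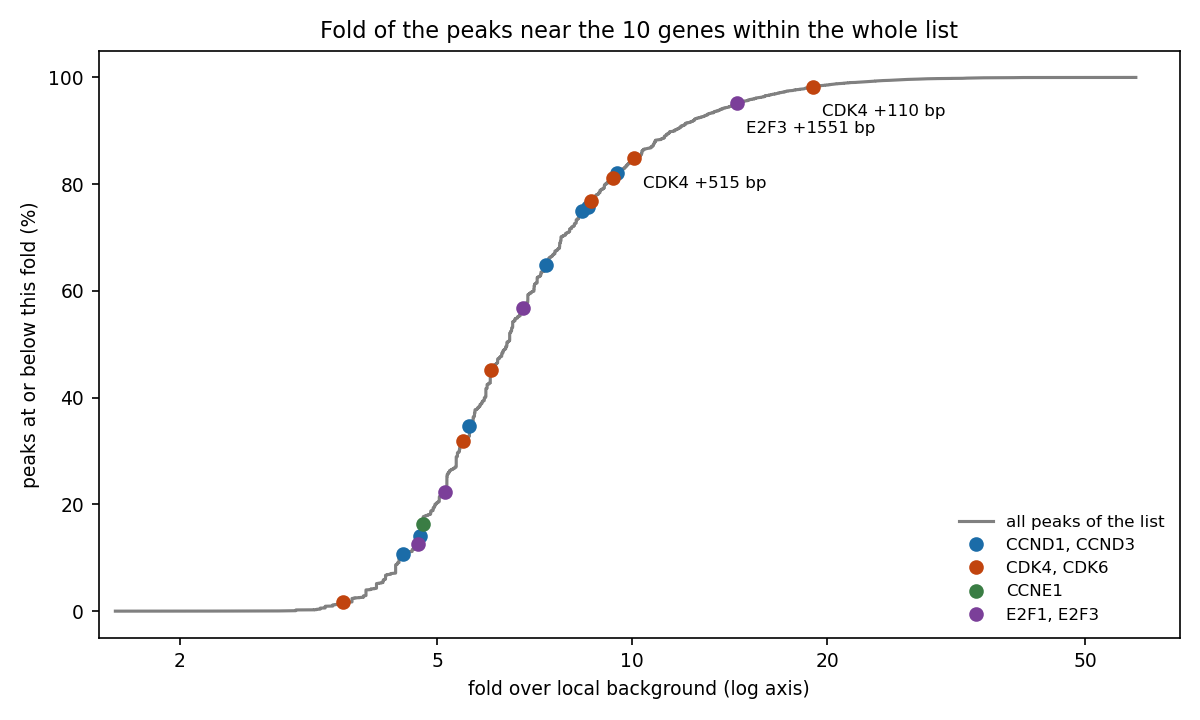
Cumulative share of all 17659 peaks (grey line, %) by fold on a log axis, with the 19 peaks near the 10 genes as points coloured by role. The points are spread along the whole curve, with CDK4 at 110 bp and E2F3 at 1551 bp downstream near its top.

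Most 10 kb windows with a summit held 1 (10495 of 13588), whereas CDK4, E2F3, CDK6 and CCND1 had 2 to 6. Of the 10 genes, 3 (CCND1, CDK6 and E2F3) had 3 or more summits in the window and together held 14 of the 19 peaks, and 0.229% of the 10 kb windows along the chromosomes held as many. For 5 or more summits, reached by CCND1 and CDK6, the share was 0.0184%. Among the windows with at least 1 summit the shares were 4.95% and 0.397%, beside 3 and 2 of the 7 genes with a peak. The windows along the chromosomes are mostly not at genes, so none of these shares stands for an ordinary promoter. Those windows were also not centred on gene starts as the gene windows were, so they can cut through a group of peaks. Joining peaks no more than 1 kb apart reduced the 19 peaks to 10 regions, and whether close summits are separate binding sites was not tested.

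**Figure D4:**
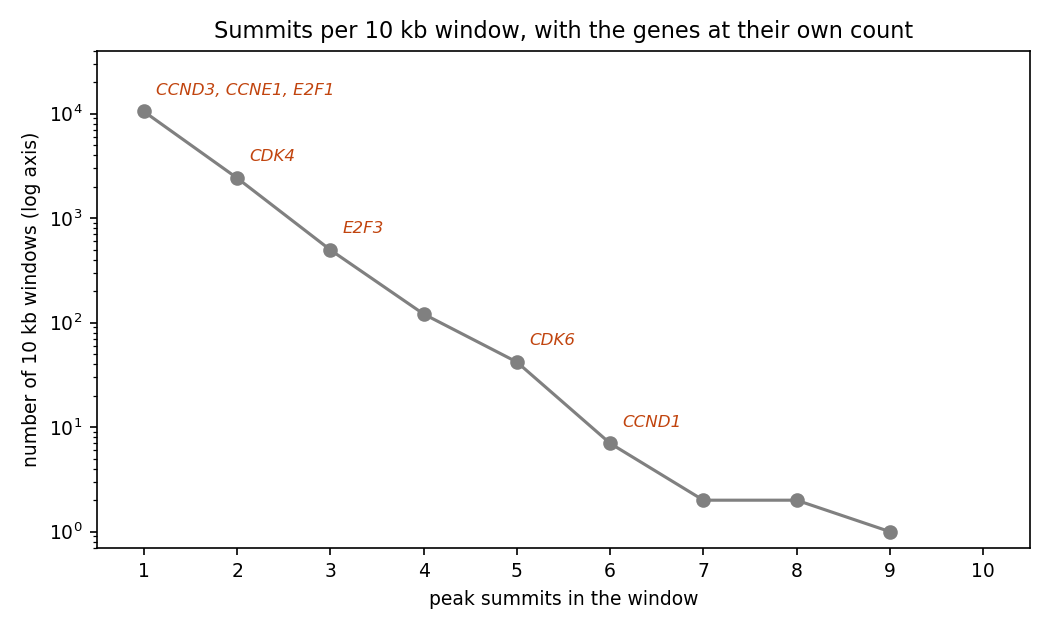
Number of 10 kb windows (log axis) by the number of peak summits they hold, over windows with at least 1 summit. Gene names stand at their own number of summits within 5 kb: CCND3, CCNE1 and E2F1 at 1, CDK4 at 2, E2F3 at 3, CDK6 at 5 and CCND1 at 6.

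Set beside the sequences, the 2 genes with a peak of fold 10 or more, CDK4 and E2F3, were the 2 matched genes with a CACGTG before a start. CDK6, the remaining matched gene with CACGTG, had a best fold of 9.33, and CCND1, which was not matched, had 9.48. CCND3, CCNE1 and E2F1 had no CACGTG in their windows and had best folds of 4.75 to 7.35, and CDC25A had neither CACGTG nor a peak. This holds for the best peak of each gene only. For the peak closest to the start examined, the fold was 4.67 at E2F3 and 5.48 at CDK6. These were below 7.35 at CCND3 and 6.79 at E2F1, which have no CACGTG. At E2F3 and CDK6, however, the CACGTG was in the window of only 1 of 2 listed starts. The builds were not matched, so whether the start examined is the one with the CACGTG was not tested. The genes with CACGTG also had more peaks from which a best was taken, 2 at CDK4, 5 at CDK6 and 3 at E2F3. CCND3, CCNE1 and E2F1 had 1 peak each, so CACGTG and the number of peaks cannot be told apart here. No test was made over these 7 genes, and the RefSeq windows cover only 300 bases around each start.

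A list of 20 other cell cycle genes, most of G1 and S phase and some of G2 and mitosis (CCNB1, CDK1, CDC25B and CDC25C), was examined for the same letters only, since their GRCh37 start sites were not used here. Promoter windows were found for 17 of them. CACGTG was present in 1 of the 17, CCNB1, which encodes the mitotic cyclin B1, against 8.77% of all genes with a RefSeq window. TTGGCGC was present in 4 of the 17, against 3.66%: CDC6, which loads the replicative helicase, CDK1, E2F2 and RBL1, a relative of the retinoblastoma protein. The variant CACGCG was found in 3 (CDT1, CKS1B and TFDP1), against 13.5% of all genes. CATGTG was found in 1 (RBL2), against 13.4%. The 7 matched genes of the main set held CACGCG in 1 (CCND3) and CATGTG in 1 (CDK4).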

How the data were processed

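The deposited file is the authors' narrowPeak list for the 1 MYC ChIP library. Per the submitters' processing notes, the tools included MACS2 2.1.0, STAR 2.5.2a, Picard 2.7.1 and SAMtools 1.3, without stated roles, and the build was GRCh37. How the list was filtered is not given in the sources used here. Its deposited columns hold a score, the fold (a ratio over local background), and the −log10 p and −log10 q of each peak. Positions are printed 1-based.

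Pileup and background at each summit were recovered from the deposited fold, (pileup + 1) / (background + 1), and the Poisson −log10 p, trying pileups from 3 to 699. A match within 0.001 was found for 100.0% of peaks, and the procedure was tested on simulated data. The simulated peaks were made with the same formulas, so they check the inversion and not the formulas themselves. The labels name no molecular identifiers that would separate molecules from PCR copies, and Poisson and Wilson intervals cover counting error only. Total depth is not given in the file.

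All 10 genes were named by rule, with start sites taken as given. The genes, lists and windows were chosen with earlier results of these data known. Promoter letters and gene order came from RefSeq (GRCh38.p14), whose positions were kept apart from those of the peaks. The E-box CACGTG, the variants CACGCG and also CATGTG, the looser CANNTG (which includes CACGTG and also CATGTG) and the E2F core TTGGCGC were searched on both strands. Python 3.11.15 and SciPy 1.17.1 were used. Alternatives changed the window, the peak threshold, the joining of peaks and the motif.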

Additional observations from a re-analysis of the deposited data

How the results depend on the processing

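Of 51 alternatives, 41 left a count within 1.5 times or a value within its interval, and 10 moved it. For the median of the best folds, the range over the genes stood in for an interval. Some alternatives could not move a value. CCND3, CCNE1 and E2F1 had 1 peak each, so every choice of best peak gave the same fold. The 41 is therefore not a measure of robustness. The same 7 genes had a peak with windows of 1, 2 and 10 kb on each side. With 50 kb there were 9, and CCNE1 dropped out at a −log10 q of 5 or more and at the list's median −log10 p, leaving 6. Asking for a fold of 10 or more left 2 genes, CDK4 and E2F3. The number of peaks was 11 within 1 kb, 36 within 50 kb, 11 at or above the median −log10 p, and 10 after joining peaks within 1 kb. The share of peaks past the fold threshold was 42.1% at a fold of 8 and 0% at a fold of 20. These changes follow from fewer or more peaks by construction. Taking the peak closest to the start lowered the fold of E2F3 from 14.5 to 4.67 and of CDK6 from 9.33 to 5.48. The looser CANNTG was found in all 7 matched genes, and in 73.1% of the genes in the table. At CCND3 it was only in the window of the most upstream start. No paired analysis was possible because there was 1 ChIP library and 1 input library, and the peak list is a single column of values. No replicate could be left out.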

Other observations

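Outside the 5 kb windows, the nearest MYC peak had a fold of 10 or more for CDK4, CCND3 and CDK6 only. For the other genes its fold ran from 3.69 (CCND2) to 6.90 (CDC25A). Of the whole list, 15.4% had a fold of 10 or more. The nearest peak beyond the CDK4 window was 19.7 kb upstream of its start (chromosome 12, 58165588 to 58166043), and with 51 fragments and a fold of 26.6 it exceeded both CDK4 peaks. The nearest beyond the CCND3 window was 20.3 kb downstream (chromosome 6, 41889140 to 41889617), with 31 fragments and a fold of 13.8 against 7.35 at CCND3 itself. Beyond the CDK6 window the nearest was 70.6 kb upstream (chromosome 7, 92533696 to 92533989), with 47 fragments and a fold of 20.7. These peaks were not assigned to a gene, since no GRCh37 annotation was used. E2F3 was the most isolated of the bound genes: past its 3 peaks the nearest was 551 kb away, with a fold of 4.16.

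Within 50 kb of the start, CDK4 and CCND1 had 7 peaks each, CCND3 and CDK6 5 each, E2F1 4, CCNE1 and E2F3 3 each, CCND2 and CDK2 1 each and CDC25A none. CDK4, with 2 peaks in its own window, thus had 5 more in its surroundings, whereas all 5 CDK6 peaks and all 3 E2F3 peaks lay within 5 kb of the start.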
